A study of Mus musculus with 65 samples.

Results

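Among single cells of the embryonic mouse cortex, those with the neuronal transcription factor Neurod6 were set against those with the progenitor transcription factor Sox2. The cells were selected on their measured levels of these 2 genes. Counts were scaled to CPM, the counts in a cell divided by its total and multiplied by 1000000, and only cells with at least 1000000 reads were used. A Neurod6 cell had Neurod6 at 10 CPM or more, and a Sox2 cell had Sox2 at 10 CPM or more with Neurod6 below that level. Of 65 cells, 36 entered the comparison: 16 Neurod6 cells and 20 Sox2 cells. Another 26 cells had neither gene at 10 CPM, and 3 cells had too few reads.

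All cells came from C57BL/6J embryos at E13.5, with no treatment or genotype difference. Cortices were freed of the ganglionic eminences and dissociated, the brains of all pups were pooled, and cells negative for propidium iodide were sorted singly. Full-length cDNA was made without molecular identifiers. The titles number the cells in 3 sets that the labels do not explain, here treated as possible batches. The sets 1, 2 and 3 held 11, 2 and 3 Neurod6 cells, against 8, 5 and 7 Sox2 cells. Because no animal is named, each group counts as 1 sample. Differences are therefore given with no p-value. The spread between cells is given for some genes only, and for others it can exceed the difference.

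The embryonic cortical wall holds apical progenitors, or radial glia, which divide at the ventricle and keep Sox2, Pax6 and Notch signalling active. They produce neurons directly or through intermediate progenitors marked by Eomes. Newborn excitatory neurons leave the cell cycle, switch on Neurod6, Neurod2 and Tbr1, build a neuronal microtubule skeleton and extend an axon.

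Neurod6, a basic helix-loop-helix factor of the excitatory lineage, had 61.8, 1528 and 13258 CPM as the lowest, median and highest value in Neurod6 cells, against 0, 0.088 and 0.356 CPM in Sox2 cells. Sox2, which maintains neural progenitors, had 0, 0 and 0.131 CPM in Neurod6 cells, against 10.9, 146 and 812 CPM in Sox2 cells. These values chose the groups and are a description only. No cell with 1000000 reads had both genes at 10 CPM. Under the limit, the highest Neurod6 value of any cell outside its group was 1.15 CPM and the highest Sox2 value was 1.13 CPM. Above it, the lowest accepted values were 61.8 CPM for Neurod6 and 10.9 CPM for Sox2, and the next were 279 and 17.3 CPM.

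Reads per cell ranged from 1390849 to 24620457 in Neurod6 cells, with a median of 13317944, against 7672145 to 32130629 in Sox2 cells, with a median of 17619717. A median of 2949 genes reached 10 CPM in Neurod6 cells, against 3088.5 in Sox2 cells. With every cell thinned to 1390849 reads, the median number of genes detected was 4417.5 in Neurod6 cells, against 4547 in Sox2 cells. Across genes, the median correlation of log2(CPM + 1) was 0.413 between Neurod6 cells, 0.421 between Sox2 cells and 0.376 across the groups.

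The series labels every cell a neural progenitor cell, Neurod6 cells included, so that the groups rest on the 2 genes and not on its labels. The markers of both cell types mostly followed the groups. Tubb3, the neuronal beta-tubulin, reached 10 CPM in 16 of 16 Neurod6 cells, as did Map2, a dendritic microtubule protein, and Dcx, the microtubule binder of migrating neurons, reached it in 15. In Sox2 cells, Vim, the intermediate filament of radial glia, reached 10 CPM in 20 of 20 cells, Pax6 in 13 and Hes1, a Notch effector, in 12. Both groups also held the other type's genes. Vim reached 10 CPM in 15 Neurod6 cells, and Tubb3 in 14 Sox2 cells and Map2 in 11. Eomes, the intermediate progenitor factor, reached it in 10 Neurod6 cells and in 2 Sox2 cells. The groups are therefore called by their genes below.

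A mean of 10 CPM over both groups, each weighted equally, was reached by 8057 genes of 11971, besides Neurod6 and Sox2. For each, the difference is the mean log2(CPM + 1) in Neurod6 cells minus that in Sox2 cells, and 2 or more either way was called. Of these genes, 478 were higher in Neurod6 cells (5.93%) and 586 were lower (7.27%). The called counts of every gene list below stand against these shares. The median difference of all genes was -0.22, and 56.8% lay below 0. In every title set alike, 10.7% lay above 0 and 22.6% below it. At 10 CPM in every cell of both groups were 139 genes (1.73%). With the same sign asked for in each title set, 355 higher genes (4.41%) and 468 lower genes (5.81%) were left.

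The balance of these counts moved with the title sets. Within set 1, 476 genes were higher (5.91%) and 1472 lower (18.3%). Within set 2, 1369 were higher (17%) and 1839 lower (22.8%), and within set 3, 1730 were higher (21.5%) and 864 lower (10.7%). Genes at 10 CPM per cell moved with it: in set 1 the medians were 2847 in Neurod6 cells and 3482.5 in Sox2 cells, in set 2 they were 2284.5 and 2675, and in set 3 they were 3235 and 2464. Their part in the counts was not tested. Of the 2 Neurod6 cells of set 2, 1 had 1390849 reads, the fewest of any cell compared, and 1435 genes at 10 CPM. The other had 7606441 reads and 3134 such genes. Without title set 1, 1099 of 7262 genes compared were higher (15.1%) and 729 lower (10%). Without title set 3, 457 of 7972 were higher (5.73%) and 955 lower (12%). Genes named below that were called but changed sign within a set carry the difference of that set.

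The 20 genes with the largest positive difference and one sign in every set differed by 5.18 to 7.75. Cnr1, the presynaptic cannabinoid receptor, had 0, 1331 and 3775 CPM in Neurod6 cells as lowest, median and highest, against 0, 0.0741 and 17.9 CPM in Sox2 cells. It averaged 8.21 ± 4.43 on the log2(CPM + 1) scale in Neurod6 cells and 0.46 ± 1.11 in Sox2 cells (SD, n = 16 and 20 cells), a difference of 7.75. Stmn2, a stathmin that loosens microtubules in growing axons, had 0, 1710 and 5499 CPM in Neurod6 cells, against 0, 0.329 and 1178 CPM in Sox2 cells, a difference of 7.64. For Dcx the values were 1.43, 1020 and 5960 CPM in Neurod6 cells, against 0.228, 0.796 and 1543 CPM in Sox2 cells, a difference of 7.36. All 3 genes overlapped between the groups through a few cells. Cnr1 reached 10 CPM in 13 Neurod6 cells and in 1 Sox2 cell, Stmn2 in 14 and 3, and Dcx in 15 and 4. The 4 Sox2 cells with Dcx were also the only Sox2 cells with any of Dlx1, Dlx2, Dlx5, Dlx6as1 and Gad2 at 10 CPM.

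**Figure D1:**
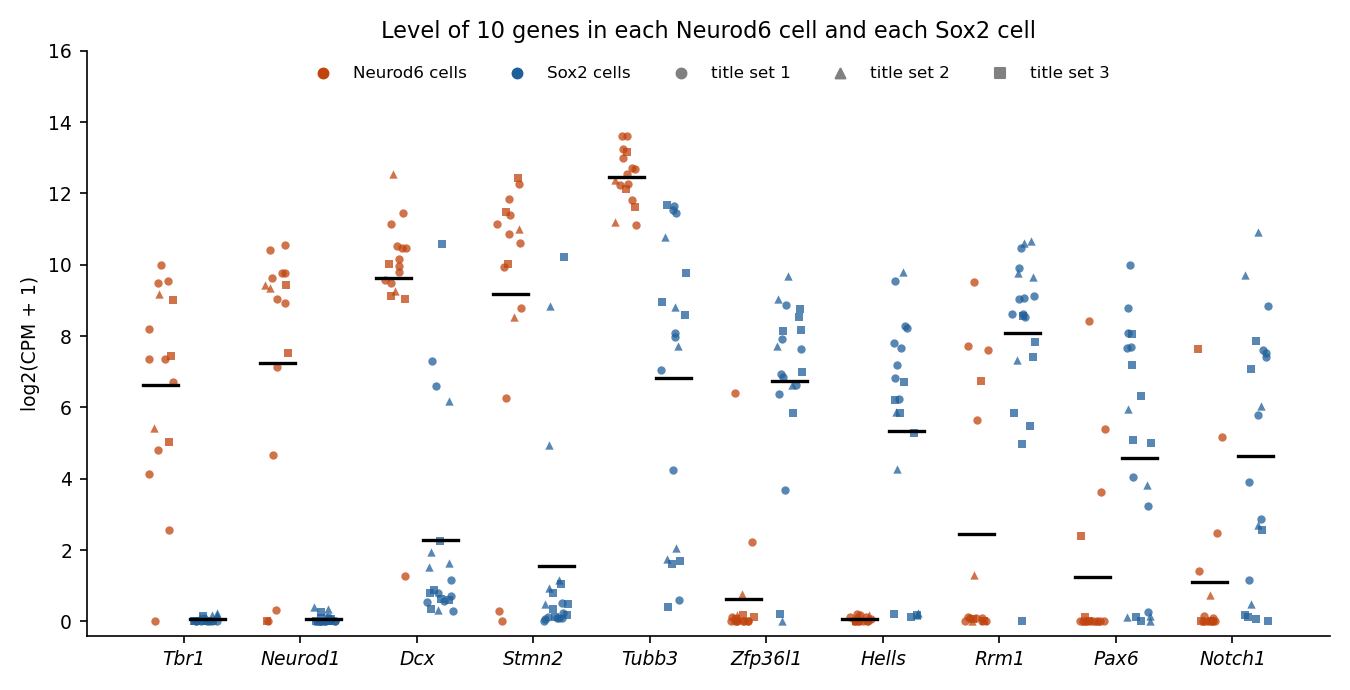
Level of 10 genes as log2(CPM + 1), 1 point per cell, with Neurod6 cells left of Sox2 cells for each gene, the point shape giving the title set and the black bar the group mean. Tbr1 and Neurod1 lie near 0 in all 20 Sox2 cells, Hells lies near 0 in all 16 Neurod6 cells, and every gene overlaps between the groups through cells of the other group near 0 or cells of the lower group with a high value.

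Tubb3 and Map2 were at 10 CPM in every Neurod6 cell. Tubb3 had 2198, 5620 and 12534 CPM in Neurod6 cells, against 0.311, 262 and 3278 CPM in Sox2 cells, and averaged 12.45 ± 0.77 on the log2 scale in Neurod6 cells and 6.82 ± 4.10 in Sox2 cells (SD, n = 16 and 20). The lowest Neurod6 cells thus lay under the highest Sox2 cells. Map2 had 146, 1287 and 3318 CPM in Neurod6 cells, against 0, 48.3 and 603 CPM in Sox2 cells. Sorbs2, an actin-linked adaptor, had 14.6, 531 and 2314 CPM in Neurod6 cells, against 0, 0.358 and 489 CPM in Sox2 cells, and reached 10 CPM in 16 and 6 cells.

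The rest of the 20 had differences of 5.18 to 7.17. They include Neurod1 and Nhlh1, neurogenic basic helix-loop-helix factors, Tbr1, the T-box factor of early cortical neurons, and Rnd2, a GTPase of migrating neurons. Rtn1, Stmn3 and Tagln3 act in membranes and the cytoskeleton. Dpysl3 transmits guidance signals, Kif21b is a kinesin and Nav1 a microtubule-tip protein. Serpini1 is the secreted protease inhibitor neuroserpin, Cacna2d1 a calcium channel subunit and Mycbp2 a ubiquitin ligase of axons. Igfbpl1 had 0, 76.4 and 2575 CPM in Neurod6 cells, against 0, 0.0832 and 31.5 CPM in Sox2 cells, a difference of 5.18. Mycbp2 varied between sets, with differences of 7.53, 1.07 and 2.62 in sets 1, 2 and 3.

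Some neuronal genes were at 10 CPM in no Sox2 cell. Of the genes compared, 28 (0.348%) reached 10 CPM in at least 8 Neurod6 cells and in none of 20 Sox2 cells. Such a 0 allows a share of up to 15% by 3 counts of the total, and 16.8% by the exact interval. Tbr1 led them with 14 of 16 Neurod6 cells (87.5%, exact Clopper-Pearson 95% interval 61.7% to 98.4%). Its lowest, median and highest values were 0, 163 and 1013 CPM in Neurod6 cells, against 0, 0 and 0.178 CPM in Sox2 cells, and it was seen in every set. Neurod1 followed with 13 cells and 0, 589 and 1507 CPM in Neurod6 cells, against 0, 0 and 0.336 CPM in Sox2 cells. Serpini1 had 12 cells, and 0, 242 and 1005 CPM in Neurod6 cells, against 0, 0 and 0.0832 CPM in Sox2 cells. Intervals and limits of this kind cover counting error only.

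Of 46 listed cortical neuron transcription factors in the table, 43 passed the minimum, and 14 were higher and 2 lower, with a median difference of 0.68. Neurod2, a close relative of Neurod6, had 0, 54.2 and 1382 CPM in Neurod6 cells, against 0, 0.0278 and 120 CPM in Sox2 cells, and reached 10 CPM in 12 and 1 cells. Zbtb18, a transcriptional repressor, differed by 4.68, as did Myt1, a zinc finger repressor. Bcl11b, which marks neurons that project below the cortex, had 0, 141 and 634 CPM in Neurod6 cells, against 0, 0.603 and 240 CPM in Sox2 cells, a difference of 3.69.

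The layer markers were unevenly spread over Neurod6 cells. Bcl11b reached 10 CPM in 12 of 16 Neurod6 cells and in 5 of 20 Sox2 cells. Fezf2, a deep-layer fate factor, differed by -0.51 and was at 10 CPM in 5 Neurod6 cells and 7 Sox2 cells. Sox5, another deep-layer factor, differed by 0.57. The regional factors Emx1 and Emx2 differed by 0.30 and -1.51, and Fezf2, Sox5, Emx1 and Emx2 were not called.

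Sp8 and Foxp1 were the lower factors of the list. Sp8, a zinc finger factor that patterns the forebrain, had 0, 0.0748 and 0.719 CPM in Neurod6 cells, against 0, 122 and 3653 CPM in Sox2 cells, a difference of -5.85. It reached 10 CPM in 0 of 16 Neurod6 cells, which allows up to 18.8% by 3 counts of the total and 20.6% by the exact interval, and in 14 of 20 Sox2 cells. Of those 14 Sox2 cells, 9 had Pax6 and 4 had Dlx5, a ventral forebrain factor. Foxp1 differed by -2.43 overall and by -5.27, -1.02 and 0.17 within sets 1, 2 and 3.

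The intermediate progenitor and neurogenic list had 19 genes in the table, of which 16 passed the minimum, 7 were higher and 1 was lower, with a median of 1.35. Eomes had 0, 280 and 1754 CPM in Neurod6 cells, against 0, 0.166 and 1235 CPM in Sox2 cells, a difference of 4.29. Neurog2, the proneural factor upstream of the cortical neurogenic cascade, did not follow it: it was at 10 CPM in 6 cells of either group and differed by 0.25. Of the 6 Neurod6 cells with Neurog2, all had Eomes, and of the 6 such Sox2 cells 2 did. Btg2, an antiproliferative gene of neurogenic divisions, was the lower member, with 0, 0.213 and 263 CPM in Neurod6 cells, against 0, 192 and 1771 CPM in Sox2 cells, a difference of -4.37.

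Tbr1 and Eomes, which in the textbook sequence follow each other, were often read in the same Neurod6 cell. Of 16 cells, 8 had both at 10 CPM, 6 had Tbr1 alone and 2 had Eomes alone. Neurod1 was at 10 CPM in 9 of the 10 Eomes cells, and Top2a, the mitotic topoisomerase, in 4 of them.

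Of the 24 lists, the neuronal cytoskeleton held the most higher genes: of 45 in the table, 43 passed the minimum, 25 were higher and 1 lower, and the median was 2.38. It stayed above 0 within sets 1, 2 and 3, at 2.06, 2.74 and 2.83. Per cell, 19, 33 and 38 of the 45 genes reached 10 CPM in Neurod6 cells as lowest, median and highest, against 13, 18.5 and 27 in Sox2 cells. The groups overlapped in that count.

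Of the alpha-tubulins, Tuba1a, the main form of postmitotic neurons, had 583, 3048 and 14724 CPM in Neurod6 cells, against 432, 883 and 3059 CPM in Sox2 cells, a difference of 1.61 that was not called. Tuba1b had 4.99, 146 and 476 CPM in Neurod6 cells, against 145, 511 and 3138 CPM in Sox2 cells, a difference of -2.33, and was lower in each set. Tuba1c differed by -1.52. Reads of near-identical tubulins may have been split or lost in counting, so that these values are uncertain.

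Axon guidance and adhesion genes were higher in part: of 47 in the table, 40 passed, 15 were higher and 0 lower, with a median of 1.56. Plxna4, a semaphorin co-receptor, had 0, 107 and 593 CPM in Neurod6 cells, against 0, 0 and 0.215 CPM in Sox2 cells, and reached 10 CPM in 10 Neurod6 cells and 0 Sox2 cells. L1cam, an axonal adhesion molecule, had 0, 73.8 and 1026 CPM in Neurod6 cells, against 0, 0.0921 and 0.822 CPM in Sox2 cells. Epha3, an ephrin receptor, and Pcdh9, a protocadherin, differed by 4.62 and 4.14. The most negative members were not called: Plxnb2 at -1.29, Sema5a at -1.12, Efnb1 at -0.90 and Plxna1 at -0.40.

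Of 49 synapse, vesicle and channel genes in the table, 31 passed the minimum, 13 were higher and 0 lower, and the median was 1.56. Slc17a6, the vesicular glutamate transporter of young excitatory neurons, had 0, 59.8 and 1747 CPM in Neurod6 cells, against 0, 0 and 0.13 CPM in Sox2 cells. It was at 10 CPM in 9 Neurod6 cells and in no Sox2 cell. Cells varied widely: 3, 15.5 and 20 of the 49 genes reached 10 CPM in Neurod6 cells, against 0, 4 and 6 in Sox2 cells.

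Of 36 RNA-binding genes that passed, out of 41 in the table, 8 were higher and 3 lower, with a median of 0.07; over all genes 5.93% were higher and 7.27% lower. The neuronal Hu proteins Elavl3 and Elavl4 differed by 4.61 and 5.07, and both were at 10 CPM in 16 of 16 Neurod6 cells, against 9 and 10 of 20 Sox2 cells. Their ubiquitous relative Elavl1 had 0, 26 and 1041 CPM in Neurod6 cells, against 12.8, 308 and 923 CPM in Sox2 cells, a difference of -3.61. It was at 10 CPM in 8 of 16 Neurod6 cells and in every Sox2 cell.

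The splicing repressor Ptbp1, which holds back neuronal exons in progenitors, had 0, 0.107 and 51.5 CPM in Neurod6 cells, against 0, 50.6 and 2463 CPM in Sox2 cells, a difference of -3.48. Its neuronal counterpart Ptbp2 differed by 0.32 and was read in both groups, with medians of 338 CPM in Neurod6 cells and 298 CPM in Sox2 cells. Srrm4, the activator of neuronal microexons, had 1.88, 105 and 548 CPM in Neurod6 cells, against 0, 0.089 and 141 CPM in Sox2 cells, and Rbfox2, a splicing regulator, differed by 4.75. Qk, the RNA-binding protein quaking, was lower overall at -3.16, but by set it was -5.30, -6.65 and 2.13.

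The promoters of the higher neuronal genes were searched for the letters CAGATG, an E-box that neurogenic basic helix-loop-helix factors such as Neurod1 can bind. Windows were the 250 bases before the start in the RefSeq promoter table (build GRCm38.p6), both strands were searched, and no motif used here contains another. The letters stood in 16.3% of all 27025 genes of the table, and in 700 of 6513 matched genes compared (10.7%). Only 352 of the 478 higher genes matched the table (73.6%), so that a share over them is void and none is given. Of the 20 highest genes, Stmn3, Serpini1 and Nhlh1 had a single listed promoter that held it. They are printed to show where the letters, in capitals, lie, and were picked after their values were seen.

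Stmn3 chr2:181314501-181314750 (minus strand): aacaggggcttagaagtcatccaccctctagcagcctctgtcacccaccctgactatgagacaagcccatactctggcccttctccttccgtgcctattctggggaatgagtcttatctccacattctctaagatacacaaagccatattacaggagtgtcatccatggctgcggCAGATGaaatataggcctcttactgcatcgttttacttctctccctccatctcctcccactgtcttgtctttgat
Serpini1 chr3:75557243-75557492 (plus strand): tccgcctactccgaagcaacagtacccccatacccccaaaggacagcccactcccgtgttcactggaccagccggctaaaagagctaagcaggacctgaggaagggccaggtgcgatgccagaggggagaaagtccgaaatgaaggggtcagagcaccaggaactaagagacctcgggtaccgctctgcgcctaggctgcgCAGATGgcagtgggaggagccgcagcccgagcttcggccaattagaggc
Nhlh1 chr1:172057597-172057846 (minus strand): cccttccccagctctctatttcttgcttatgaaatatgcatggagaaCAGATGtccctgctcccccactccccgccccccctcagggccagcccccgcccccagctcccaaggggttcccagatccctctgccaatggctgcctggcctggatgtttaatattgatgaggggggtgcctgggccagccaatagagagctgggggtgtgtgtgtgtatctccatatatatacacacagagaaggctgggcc

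The match began 75, 49 and 203 bases before the listed start in Stmn3, Serpini1 and Nhlh1. Bases just after that start were found in a reference transcript for Stmn3, but not for Serpini1 or Nhlh1. Their distances are therefore less certain.

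Genes of cell division were lower in Neurod6 cells. Of 57 listed G1/S and DNA replication genes, 56 were in the table and 55 passed the minimum; 42 were lower by 2 or more, 0 were higher, and all 55 lay below 0. The median was -3.02, and -4.08, -3.38 and -1.67 within sets 1, 2 and 3. Rpa2, a subunit of the single-strand binding complex of replication forks, had 0, 0 and 0.263 CPM in Neurod6 cells, against 0, 238 and 747 CPM in Sox2 cells, a difference of -6.21. It averaged 0.06 ± 0.10 on the log2 scale in Neurod6 cells and 6.27 ± 3.50 in Sox2 cells (SD, n = 16 and 20).

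Hells, a chromatin remodeller of replicating cells, had 0, 0 and 0.144 CPM in Neurod6 cells, against 0.0972, 73.5 and 885 CPM in Sox2 cells, a difference of -5.28. Both Rpa2 and Hells were at 10 CPM in 0 of 16 Neurod6 cells and in 15 of 20 Sox2 cells (75%, exact interval 50.9% to 91.3%). They lead 19 genes (0.236%) that reached the level in at least 10 Sox2 cells and in no Neurod6 cell, with the same limits for a 0 of 16 as for Sp8. Also among these 19 were Aif1l, an actin-binding protein, and Gpx8, a peroxidase of the endoplasmic reticulum, each in 14 Sox2 cells.

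Other replication genes were read in some Neurod6 cells. Rrm1, the large subunit of the enzyme that makes deoxynucleotides, had 0, 0.0703 and 737 CPM in Neurod6 cells, against 0, 390 and 1613 CPM in Sox2 cells, and reached 10 CPM in 5 and 19 cells. Pcna, the sliding clamp, had 0, 27.2 and 655 CPM in Neurod6 cells, against 0.0445, 466 and 1730 CPM in Sox2 cells. Its difference of -3.31 came with -5.27, -7.05 and 1.23 in sets 1, 2 and 3. Mcm3, a helicase subunit, differed by -4.62 overall and by -0.60 in set 3. Ccnd1, the G1 cyclin, differed by -3.68, and Ccnd2, another D-type cyclin, by -2.10.

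Of 63 G2/M and mitosis genes in the table, 61 passed, 30 were lower and 0 higher, and 60 lay below 0, with a median of -1.98. Hmgb2, a chromatin protein of dividing cells, had 0.0784, 91.5 and 3813 CPM in Neurod6 cells, against 102, 1292 and 3299 CPM in Sox2 cells, a difference of -4.70. Top2a had 0, 0.13 and 2345 CPM in Neurod6 cells, against 0, 218 and 1359 CPM in Sox2 cells, and reached 10 CPM in 5 and 15 cells. Mki67, the proliferation antigen, had 0, 0.0728 and 1063 CPM in Neurod6 cells, against 0, 131 and 695 CPM in Sox2 cells. For all 3 genes the highest value of any cell was in a Neurod6 cell of title set 1.

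The cell with the highest Top2a and Mki67 had 58 of 63 mitotic genes and 33 of 56 replication genes at 10 CPM. It also had 14 of 26 apical progenitor factors, 509 CPM of Eomes, 344 CPM of Pax6, 0 CPM of Tbr1 and 1.43 CPM of Dcx. A second Neurod6 cell of set 1, the highest in Hmgb2, had 40 mitotic and 22 replication genes, with 366 CPM of Eomes, 295 CPM of Tbr1 and 756 CPM of Dcx. The other 14 had at most 15 mitotic genes. Without these 2 cells, the mitotic median was -2.68 in place of -1.98. They were chosen by their mitotic genes after the values were seen, so that a lower median was built into the choice.

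Most Sox2 cells had many cycle genes. Mitotic genes at 10 CPM numbered 4, 10 and 58 per cell in Neurod6 cells as lowest, median and highest, against 8, 32 and 59 in Sox2 cells. Replication genes numbered 5, 10 and 33 in Neurod6 cells, against 8, 32 and 50 in Sox2 cells. A few Sox2 cells had both counts in the range of most Neurod6 cells, and the cells with the most replication genes were not those with the most mitotic genes. Top2a and Mki67 were both at 10 CPM in 3 Neurod6 cells and in 12 Sox2 cells. They were both below it in 10 Neurod6 cells and in 4 Sox2 cells.

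**Figure D2:**
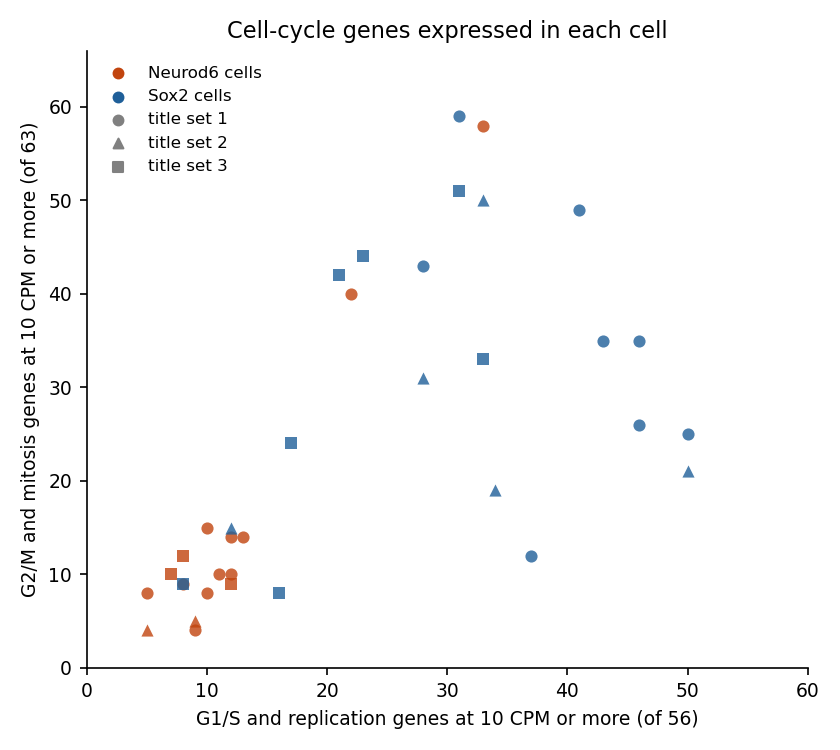
Number of G1/S and replication genes (of 56, horizontal) and of G2/M and mitosis genes (of 63, vertical) at 10 CPM or more, 1 point per cell, in Neurod6 cells and Sox2 cells, the shape giving the title set. All Neurod6 cells but 2 of set 1 lie at 15 mitotic genes or fewer, and Sox2 cells reach 50 replication and 59 mitotic genes.

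Promoters of cycle genes were searched in the same windows. Motifs were the E2F letters TTTGGCGC and TTTCCCGC, and for late genes TTTGAA, the cell-cycle homology region, with CCAAT, the NF-Y box. E2F letters stood in 29 of 471 matched lower genes (6.16%). They stood in 213 of 6513 matched genes compared (3.27%) and in 1.51% of all genes of the table. Among the mitotic list, 55 genes had a promoter; TTTGAA stood in 22 of them (40%), against 13% of genes compared, and CCAAT in 42 (76.4%), against 41.7%. These shares describe the letters in this window, and a match is not a site. Of the 44 replication genes with a promoter no share is given, since they are 78.6% of the list. Of the 20 lowest genes, the pair with E2F letters, Hells and Cdca7, a gene of cycling cells, is printed with the letters in capitals. The mitotic genes Top2a and Mki67 are printed in the same way.

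Hells chr19:38930740-38930989 (plus strand): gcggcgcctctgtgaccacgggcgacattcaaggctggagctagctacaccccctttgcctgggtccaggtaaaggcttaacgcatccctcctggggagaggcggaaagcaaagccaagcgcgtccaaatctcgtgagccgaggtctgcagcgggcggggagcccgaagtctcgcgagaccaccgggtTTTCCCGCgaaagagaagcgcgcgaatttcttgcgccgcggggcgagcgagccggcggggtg
Cdca7 chr2:72475969-72476218 (plus strand): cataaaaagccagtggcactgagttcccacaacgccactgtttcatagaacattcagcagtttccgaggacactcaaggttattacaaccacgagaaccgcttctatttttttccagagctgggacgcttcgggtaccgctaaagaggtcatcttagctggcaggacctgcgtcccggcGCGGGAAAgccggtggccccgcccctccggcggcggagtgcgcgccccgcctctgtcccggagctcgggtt
Top2a chr11:99024190-99024439 (minus strand): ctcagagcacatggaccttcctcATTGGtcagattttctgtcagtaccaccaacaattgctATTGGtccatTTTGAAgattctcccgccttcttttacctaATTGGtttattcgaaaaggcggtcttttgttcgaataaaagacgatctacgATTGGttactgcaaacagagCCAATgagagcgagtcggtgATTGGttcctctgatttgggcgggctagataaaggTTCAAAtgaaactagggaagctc
Mki67 chr7:135716380-135716629 (minus strand): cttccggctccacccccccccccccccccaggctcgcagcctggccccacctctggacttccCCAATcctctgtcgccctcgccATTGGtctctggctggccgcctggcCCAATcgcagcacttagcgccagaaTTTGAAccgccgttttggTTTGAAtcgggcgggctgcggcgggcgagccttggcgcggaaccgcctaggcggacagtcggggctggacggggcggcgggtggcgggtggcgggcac

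Hells and Cdca7 held TTTCCCGC once, Cdca7 on the other strand. Top2a held TTTGAA 2 times and CCAAT 6 times, and Mki67 held them 2 and 3 times. Bases just after the listed start were found in a reference transcript for Hells, Cdca7 and Top2a, but not for Mki67.

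Apical progenitor transcription factors were lower as a list: of 26 in the table, 22 passed, 13 were lower and 1 higher, and the median was -2.58, and -2.65, -2.31 and -2.28 within sets 1, 2 and 3. Pax6, the master factor of cortical radial glia, had 0, 0 and 344 CPM in Neurod6 cells, against 0, 32.1 and 1027 CPM in Sox2 cells, a difference of -3.33. It reached 10 CPM in 3 of 16 Neurod6 cells (18.8%, exact interval 4.05% to 45.6%), against 13 of 20 Sox2 cells (65%, 40.8% to 84.6%). The lowest member, Zfp36l1, is an RNA-binding protein that speeds mRNA decay and not a DNA-binding factor. It had 0, 0.0285 and 83 CPM in Neurod6 cells, against 0, 162 and 814 CPM in Sox2 cells, a difference of -6.10, and of -6.07, -6.13 and -6.53 within the sets.

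Effectors of Hedgehog and Hippo signalling were among the lower members. Gli3, a Hedgehog-pathway repressor that patterns the cortex, was at 10 CPM in 1 Neurod6 cell and 11 Sox2 cells. Tead1 and Tead2, the DNA-binding partners of Yap1, differed by -4.05 and -4.06. Lhx2, a selector of cortical identity, was in 13 cells of either group and differed by 1.89, with medians of 235 CPM in Neurod6 cells and 38.6 CPM in Sox2 cells. Id2, an inhibitor of basic helix-loop-helix factors, was the higher member at 2.61, with 4.01, -6.27 and 4.54 within the sets.

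Radial glia structure, adhesion and metabolism genes were lower in part: of 30 in the table, 28 passed, 10 were lower and 0 higher, and the median was -1.42. Fstl1, a secreted glycoprotein, had 0, 0 and 167 CPM in Neurod6 cells, against 0, 259 and 2305 CPM in Sox2 cells, a difference of -5.86. The serine synthesis enzymes Phgdh and Psat1 differed by -4.27 and -4.46, and each was at 10 CPM in 2 Neurod6 cells, against 13 and 12 Sox2 cells. The filament genes were not called. Vim had 0.0784, 576 and 1989 CPM in Neurod6 cells, against 99.6, 970 and 3513 CPM in Sox2 cells, a difference of -1.06, and Nes, or nestin, differed by -0.99. Fabp7, a fatty acid carrier of radial glia, differed by -2.30.

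Secreted growth factors were also among the 20 lowest genes. Mdk, midkine, had 0, 190 and 680 CPM in Neurod6 cells, against 201, 751 and 3417 CPM in Sox2 cells, so that every Sox2 cell had it. Ptn, its relative pleiotrophin, had 0, 0.115 and 373 CPM in Neurod6 cells, against 0.112, 207 and 1303 CPM in Sox2 cells. Mdk differed by -4.56 and Ptn by -5.23. Hat1, a histone acetyltransferase, differed by -5.19, but by -0.20 in set 3.

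Of 22 Notch pathway genes in the table, 14 passed, 3 were lower and 1 higher, and the median was -0.14. Among all genes compared, 7.27% were lower and 5.93% higher. The receptors Notch1 and Notch2 differed by -3.53 and -3.99, and the receptor Notch3, named after its value was seen, by -1.32, which was not called. Notch1 had 0, 0 and 199 CPM in Neurod6 cells, against 0, 34.1 and 1949 CPM in Sox2 cells, and its set differences were -4.79, -5.61 and 0.00. The target Hes1 had 0, 0 and 19.6 CPM in Neurod6 cells, against 0, 13.2 and 237 CPM in Sox2 cells, a difference of -3.50. Within sets 1, 2 and 3 Hes1 differed by -2.50, -1.53 and -5.36, and 4, 1 and 7 Sox2 cells had it at 10 CPM. Hes5, a second target, stayed under the minimum and was at 10 CPM in 0 Neurod6 cells and 3 Sox2 cells. The ligand Dll1 differed by -0.82, and Mfng, a Fringe enzyme that modifies the receptors, by 2.00. Mfng averaged 4.11 ± 3.83 on the log2 scale in Neurod6 cells and 2.11 ± 3.47 in Sox2 cells (SD, n = 16 and 20). Its spread in each group was thus wider than the difference.

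Of 30 Wnt pathway genes in the table, 19 passed, 3 were higher and 3 lower, with a median of -0.88. The shares over all genes were 5.93% higher and 7.27% lower. Apc and Gsk3b, parts of the complex that degrades beta-catenin, differed by 3.23 and 2.19. Gsk3b had 320, 1173 and 4081 CPM in Neurod6 cells, against 1.3, 558 and 1851 CPM in Sox2 cells. The ligand Wnt7b was at 10 CPM in 6 Neurod6 cells and in no Sox2 cell. The transcription factor Tcf7l2 differed by -3.31 and the target Axin2 by -1.98. Axin2 had no read in any Neurod6 cell and was at 10 CPM in 7 Sox2 cells. The secreted inhibitor Sfrp1 and the receptor Fzd2 differed by -2.83 and -2.05, with 1.06 and 0.71 in set 3.

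**Figure D3:**
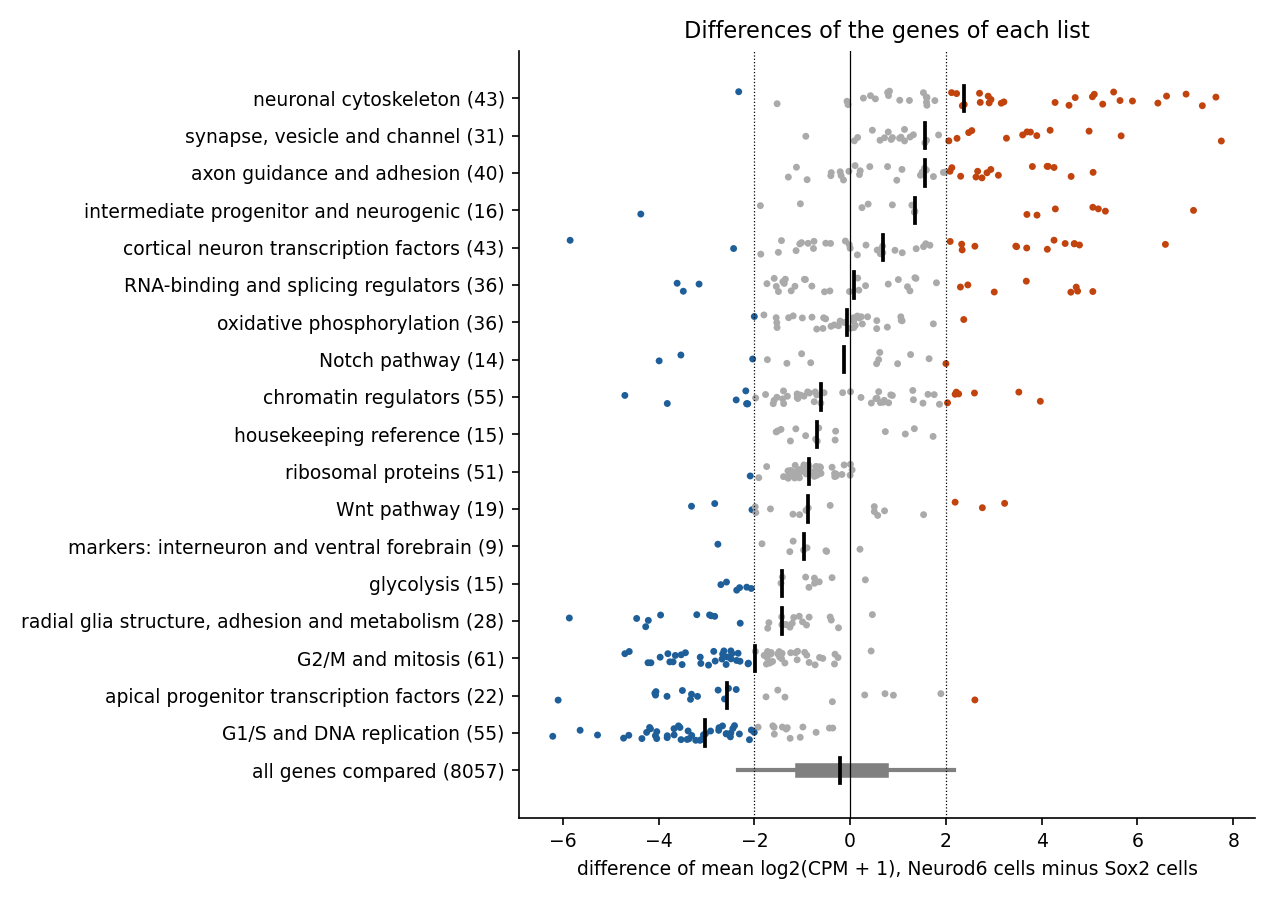
Difference of mean log2(CPM + 1), Neurod6 cells minus Sox2 cells, for each gene that passed the minimum (1 point, number in parentheses) in the lists with at least 9 such genes. Black bars are medians, dotted lines mark 2 and -2, and the lowest row gives the quartiles and the 5th to 95th percentiles of all 8057 genes; the cytoskeleton median is 2.38 and the replication median -3.02.

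Of 59 chromatin regulators in the table, 55 passed, 7 were higher and 7 lower, with a median of -0.61. Over all genes 5.93% were higher and 7.27% lower. Kdm6b, a demethylase of histone H3 lysine 27, had 27.9, 285 and 2093 CPM in Neurod6 cells, against 0.112, 23.9 and 343 CPM in Sox2 cells, and reached 10 CPM in 16 and 12 cells. Chd3, a remodelling ATPase, and Kdm1a, a demethylase, differed by 3.52 and 2.60. Uhrf1, which guides maintenance methylation of DNA at replication, differed by -3.82. Suz12 and Ezh2, both of the Polycomb complex that sets the mark Kdm6b removes, differed by -2.18 and -1.31.

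The exchange of the BAF subunits Actl6a, of progenitors, and Actl6b, of neurons, was not called. Actl6a had 0.0406, 12.1 and 2087 CPM in Neurod6 cells, against 0, 180 and 1449 CPM in Sox2 cells, a difference of -0.54. Actl6b did not pass the minimum and was at 10 CPM in 2 Neurod6 cells and in no Sox2 cell. Dpf1, another neuronal BAF subunit, differed by 2.27. Rest, the repressor of neuronal genes, was at 0 in all Neurod6 cells and at 10 CPM in 1 Sox2 cell.

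Genes of energy metabolism were described by 2 lists. Of 15 glycolysis genes that passed, out of 21 in the table, 6 were lower and 0 higher, with a median of -1.42. Of 36 oxidative phosphorylation genes, all of which passed, 1 was higher and 1 lower, with a median of -0.06. Beside both lists, 5.93% of all genes compared were higher and 7.27% lower. Ldha, lactate dehydrogenase, had 1.05, 316 and 1628 CPM in Neurod6 cells, against 1.26, 863 and 3330 CPM in Sox2 cells, a difference of -2.31. Hk2, a hexokinase, and Tpi1, triosephosphate isomerase, differed by -2.58 and -2.37. Pgam1 differed by -2.70 overall and by 2.16 within set 2. Pkm, pyruvate kinase, differed by 0.32.

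Ribosomal protein genes lay low as a list without passing the call. Of 52 in the table, 51 passed, 1 was lower, 49 lay below 0, and the median was -0.87, and -0.64, -0.68 and -0.72 within the sets. All genes compared had a median of -0.22, and -0.50, -0.41 and 0.02 within the sets, so that the list lay nearer to them in sets 1 and 2. Rps18 had 0.417, 705 and 2536 CPM in Neurod6 cells, against 969, 1731 and 5704 CPM in Sox2 cells, a difference of -1.91. None of 15 housekeeping genes was called, and their median was -0.69. Actb was higher at 1.34, with 6936, 16251 and 26738 CPM in Neurod6 cells, against 1209, 6040 and 12638 CPM in Sox2 cells, and Gapdh lower at -1.44, with 132, 377 and 2969 CPM in Neurod6 cells, against 500, 1076 and 2484 CPM in Sox2 cells. CPM are shares of a cell's reads, and less RNA per cell cannot be seen in them.

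Markers of other cell types were looked at in both groups. No listed gene of microglia, endothelium, mural and meningeal cells or oligodendrocyte precursors passed the minimum. Of these lists, the table held 7 of 11, 1 of 10, 11 of 14 and 2 of 6 genes. Most endothelial and oligodendrocyte precursor markers could therefore not be looked at. Of 9 interneuron and ventral forebrain genes that passed, out of 18 in the table, 1 was lower and 0 higher. Over all genes compared, 7.27% were lower and 5.93% higher. Of Dlx1, Dlx2, Dlx5, Dlx6as1 and Gad2, genes of GABAergic neurons and their precursors, none was at 10 CPM in a Neurod6 cell. In Sox2 cells, 3 cells, 1 in each title set, had at least 2 of the 5 at 10 CPM; they had 4, 5 and 4 of them. Another Sox2 cell, of set 1, had 1 of the 5 and 158 CPM of Dcx. The 3 cells with at least 2 had 96.6, 72.1 and 1543 CPM of Dcx in sets 1, 2 and 3. They had 0.19, 0.112 and 0.0972 CPM of Pax6. Without them, a choice made after the values were seen, the apical progenitor median was -3.12 in place of -2.58, and 508 genes were higher and 718 lower.

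Of the Cajal-Retzius markers, genes of the early neurons at the cortical surface, 3 passed the minimum of 9 in the table. Ebf2 and Nhlh2 differed by 3.82 and 3.69, and Reln, the secreted guide of layering, by 1.39. Reln had 0, 0 and 7134 CPM in Neurod6 cells, against 0, 0 and 203 CPM in Sox2 cells, and reached 10 CPM in 3 and 1 cells. Ebf2 was at 10 CPM in 8 Neurod6 cells, of which 1 also had Reln.

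Haemoglobin reads, a sign of RNA from blood cells, followed the title sets. Summed over 7 erythroid genes they had a median of 36.7 CPM in Neurod6 cells, with a range of 0 to 1090, against 462 CPM in Sox2 cells, with a range of 0 to 1646. Within the sets the order changed: the medians were 6.23 CPM in Neurod6 cells and 0.375 CPM in Sox2 cells of set 1, 781 and 605 CPM in set 2, and 236 and 899 CPM in set 3. Hbb-y, embryonic globin, differed by -2.02 overall and by 0.36, 0.58 and -2.10 in sets 1, 2 and 3. The part of these reads in other differences was not tested.

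**Figure D4:**
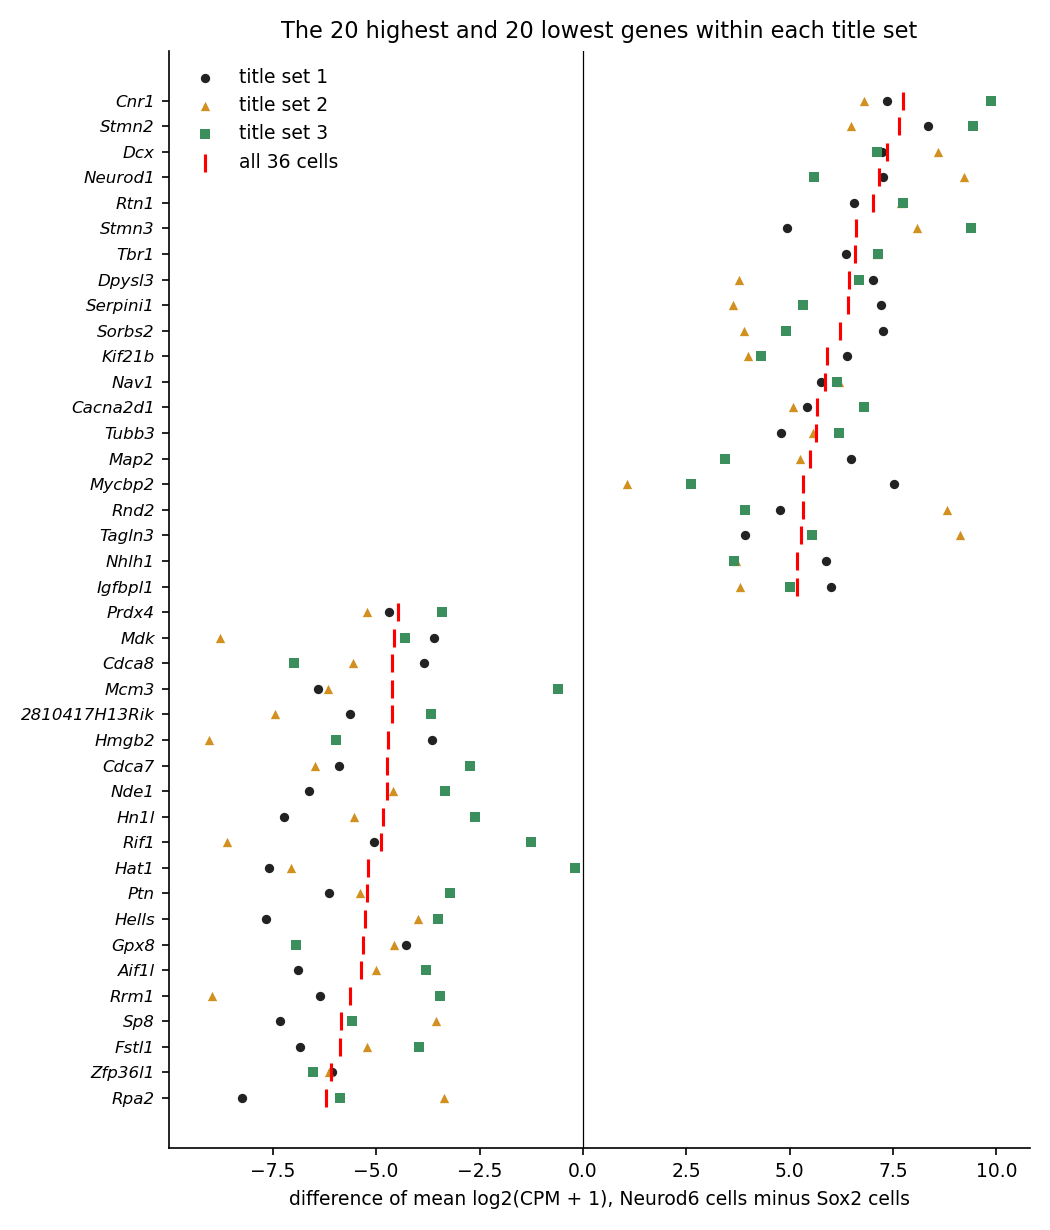
Difference of mean log2(CPM + 1), Neurod6 cells minus Sox2 cells, for the 20 highest and 20 lowest genes, within title set 1, 2 and 3 (shapes) and over all 36 cells (red bar). The rule asked for one sign in every set; the values nearest to 0 are those of Hat1 and Mcm3 in set 3, at -0.20 and -0.60, and of Mycbp2 in set 2, at 1.07.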

How the data were processed

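Single-cell RNA-seq of 65 mouse cortical cells was analysed. Raw counts, deposited by the authors as whole-number reads per gene and cell, covered 11971 genes. Per the submitters' processing notes, the tools were TopHat2 and HTSeq and the build was mm9, with neither version nor role stated; the annotation counted on is not named in the sources used here. The kit keeps no strand, so overlapping antisense genes cannot be told apart. No step was taken on doublets beyond the single-cell sort.

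Counts were divided by each cell's total and multiplied by 1000000 (CPM). Cells needed 1000000 reads. Genes needed a mean of 10 CPM. Means of log2(CPM + 1) were subtracted, Neurod6 minus Sox2, and 2 or more either way was called. Cells of pooled embryos are not replicates, so no test was made. Shares carry exact Clopper-Pearson 95% intervals. The limit given for a 0 is 3 counts of the total, beside the exact upper bound.

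The members and 24 gene lists were chosen with earlier results of these data known. Named were the 20 highest and 20 lowest genes of one sign in every title set, the 4 list members furthest in each direction, and 47 fixed genes; others are marked. A symbol was matched through RefSeq synonyms where needed (3 list entries). The calculation was tested on simulated data. Python 3.11.15, numpy 2.4.6, pandas 2.3.3, scipy 1.17.1 and matplotlib 3.10.9 were used, with size factors from edgeR 4.0.16 and DESeq2 1.42.0 in R 4.3.3 as alternatives. Scaling, pseudocount, minimum, group limits, depth and title sets were varied. Some named genes are not reported here.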

Additional observations from a re-analysis of the deposited data

How the results depend on the processing

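Of 107 named genes past the limit of 2, 98 kept their sign in all 21 alternatives, and 58 also stayed past the limit in each. The 9 that changed sign did so only within single title sets: Hbb-y at 0.36 in set 1 and 0.58 in set 2, Id2 at -6.27 and Pgam1 at 2.16 in set 2, and Foxp1 at 0.17, Hmga2 at 0.014, Qk at 2.13, Sfrp1 at 1.06, Fzd2 at 0.71 and Pcna at 1.23 in set 3; the cause was not tested. Against 478 higher and 586 lower genes, a pseudocount of 10 CPM gave 121 and 130, and the log2 ratio of mean CPM gave 1027 and 1394. Without title set 1, 1099 were higher and 729 lower, and without title set 3, 457 were higher and 955 lower. Within set 1, 1472 were lower, within set 2, 1369 were higher and 1839 lower, and within set 3, 1730 were higher. Higher genes made up 44.9% of calls, but 60.1% without set 1, 32.4% without set 3, and 24.4%, 42.7% and 66.7% within sets 1, 2 and 3. With TMM and DESeq2 size factors 441 and 364 were higher and 612 and 673 lower, and the median of all genes was -0.27 and -0.36 in place of -0.22. Set 2 holds 2 and set 3 holds 3 Neurod6 cells, so 1 cell moves their values. A gene near 0 in a group has a difference set largely by the pseudocount. No paired analysis was possible because the cells carry no pairing between the groups.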

Other observations

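The 26 cells with neither gene at 10 CPM were no uniform remainder. Tubb3 was at 10 CPM in 20 of them, Map2 in 17, Dcx in 13 and Stmn2 in 13, while Tbr1 was in 5 and Neurod1 in 4. Pax6 was in 12 and Hes1 in 7. Eomes was in 7, of which 5 also had Neurog2. Dcx ranged from 0.0943 to 3171 CPM with a median of 164.

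Genes of GABAergic neurons were also read there. Dlx1, Dlx5 and Gad2 were each at 10 CPM in 7 of the 26 cells, and Dlx2 and Dlx6as1 in 5. Sp8 was in 13, of which 5 also had Dlx5. Slc17a6, the glutamate transporter, was in 8 of the 26. Cell-cycle genes at 10 CPM had medians of 11.5 of 56 replication genes and 12.5 of 63 mitotic genes in these cells, with highest values of 38 and 51.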
